A study of Homo sapiens with 6 samples.

Results

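The genes described here are 10 regulators of Notch signalling and of secretory cell fate, chosen by symbol from the 27685 genes of the deposited count table: the receptors NOTCH1, NOTCH2 and NOTCH3, the ligands JAG1, JAG2, DLL1 and DLL4, the target HES1, and the secretory regulators ATOH1 and SPDEF. All 10 were in the table, and 9 passed the filter on low counts and were tested. RNA came from Caco-2, an established human colorectal cancer line whose cells can take on features of intestinal absorptive cells. The vector control group was mock-transfected with pcDNA3 and carries the genotype label WT. The other group carries the antisense construct hFABP1as against FABP1, a fatty acid carrier gene, and the genotype label FABP1_knockdown. Each group had 3 libraries of polyA RNA, and both were grown in the same serum-containing medium. The series' design text calls the antisense cells derivatives of the control cells. Neither a time point nor the number of lines or clones behind a group is given, so an effect of the construct and a difference between lines cannot be told apart.

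Notch receptors are cut in steps after they bind a Delta-like or Jagged ligand on a neighbouring cell. The last cut, by gamma-secretase, frees an intracellular fragment that joins the DNA-binding protein RBPJ and switches on repressors such as HES1. In the intestine HES1 represses ATOH1, the regulator that commits a progenitor to a secretory fate. SPDEF acts after ATOH1 in the maturation of goblet and Paneth cells.

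The upstream sequences of HES1 and ATOH1 are shown because these genes stand at the output of the pathway, where HES1 did not pass the test and ATOH1 went from 0 counts to a low level. RefSeq promoters (GRCh38.p14) were found for 9 of the 10 members; DLL1 was the other. The 250 bases before the start of HES1 lie at chr3:194135898-194136147 on the plus strand, and those of ATOH1 at chr4:93828503-93828752 on the plus strand. Capitals in HES1 mark TGGGAA, the core letters bound by RBPJ, and capitals in ATOH1 mark CACNAG, the N box bound by HES repressors.
HES1: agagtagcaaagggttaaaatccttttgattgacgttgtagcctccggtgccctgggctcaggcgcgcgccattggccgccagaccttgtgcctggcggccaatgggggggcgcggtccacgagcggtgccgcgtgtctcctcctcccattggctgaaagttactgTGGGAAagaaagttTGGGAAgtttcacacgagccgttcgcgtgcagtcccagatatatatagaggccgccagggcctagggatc
ATOH1: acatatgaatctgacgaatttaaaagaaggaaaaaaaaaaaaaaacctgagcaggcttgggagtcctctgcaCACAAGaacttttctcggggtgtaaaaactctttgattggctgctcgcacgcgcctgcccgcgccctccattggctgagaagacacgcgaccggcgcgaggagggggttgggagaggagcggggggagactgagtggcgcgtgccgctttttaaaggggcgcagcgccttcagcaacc

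Both strands were searched over these 250 bases. TGGGAA occurred 2 times before HES1, from 84 to 79 and from 70 to 65 bases before the start, and 1 time before SPDEF. It was present in 20.8% of all 35116 promoters of the table. The longer form GTGGGAA, which contains TGGGAA, was found before HES1 among the members and in 5.43% of all promoters. CACNAG occurred 3 times before HES1, 1 time before ATOH1 and 1 time before NOTCH3, and in 32.0% of all promoters. A match is a run of letters and was not tested as a binding site.

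Library totals ran from 40351394 to 57979037 counts, and values are given as CPM, the counts of a gene relative to its library's total after TMM adjustment. Libraries are named by the numbers 2, 3 and 4 of the column headers. The labels do not name separate cultures for the libraries, and p-values therefore rest on a spread that may be technical. FABP1 itself showed no fall: vector control libraries 2, 3 and 4 held 138, 102 and 121 CPM, and the libraries labelled as antisense held 134, 147 and 122 CPM (log2 fold change 0.16, edgeR adjusted p = 0.268). For this reason the label alone names that group, and every direction below is that of the antisense-labelled libraries relative to the vector control. Of 11 epithelial markers 10 were tested, of which 5 rose, 2 fell and 3 did not pass. For these and the marker counts below, 27.7% of all tested genes rose and 27.3% fell. EPCAM, an epithelial adhesion protein, stood at 721 ± 48.2 and 684 ± 36.9 CPM (SD, n = 3) and did not pass. KRT20, a keratin of differentiated intestinal cells, rose by 3.17 on the log2 scale, at a low level, from 0.587 ± 0.0882 to 5.35 ± 0.681 CPM. CDH17 rose by 1.32 and CDX2 by 1.09, and KRT19 fell by 0.51. The rises numbered 3 without control library 2 or antisense-labelled library 3, and the falls 1 without any 1 library other than control library 3 and with the replicate block. The leukocyte marker PTPRC and the endothelial markers CDH5, KDR, TEK and TIE1 had 0 counts in all 6 libraries. The summed level of 10 leukocyte markers was 44.4 to 48.6 CPM in the control and 63.9 to 67.2 CPM in the other libraries, and that of 13 fibroblast and smooth muscle markers 822 to 939 and 632 to 767 CPM. Within these sums single markers moved both ways. Of the fibroblast and smooth muscle markers 4 rose and 3 fell, and of the leukocyte markers 3 rose and 1 fell. The 4 rises became 2 with a filter asking for 1 CPM in 3 libraries. Over the 3 libraries of a group LUM went from 18 to 2602 counts and PDGFRA from 3151 to 59. CSF1R went from 37 to 452 counts and CD14 from 1810 to 346. The part of these shifts in the results was not tested.

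Among the ligands JAG1 and DLL4 rose and JAG2 and DLL1 fell, and for these 4 genes the libraries of the groups did not overlap. Over the 10 members, 4 rose (JAG1, DLL4, NOTCH1, ATOH1), 3 fell (JAG2, DLL1, NOTCH3), 2 did not pass (NOTCH2, HES1) and SPDEF was too low to test. ATOH1 is counted here although it entered the test through the antisense-labelled libraries alone. Of all 14640 genes tested 27.7% rose and 27.3% fell, 55.0% in all, so a change as such does not set the members apart (edgeR's quasi-likelihood F test, p adjusted by Benjamini-Hochberg, threshold 0.05). The groups did not overlap in 62.7% of all tested genes. A change of at least 2-fold with an adjusted p under 0.05, which JAG2, DLL1, DLL4 and ATOH1 showed, was found in 14.9%.

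JAG2, a Jagged ligand, had 58.0, 52.6 and 67.5 CPM in libraries 2, 3 and 4 of the vector control, against 12.0, 11.2 and 9.46 CPM in antisense-labelled libraries 2, 3 and 4. Even the highest antisense-labelled library lay far below the lowest control. The means were 59.4 ± 7.51 and 10.9 ± 1.297 CPM (SD, n = 3), a 5.47-fold fall (log2 fold change -2.45, SE 0.12, edgeR adjusted p = 8.08e-07).

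JAG1, the other Jagged ligand, had 89.0, 94.2 and 92.5 CPM in the vector control, against 143, 145 and 147 CPM in the antisense-labelled libraries. The libraries within each group lay close together. JAG1 rose 1.58-fold (log2 fold change 0.66, SE 0.06, edgeR adjusted p = 3.67e-05).

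DLL1, a Delta-like ligand of the intestinal crypt, had 6.98, 7.40 and 6.22 CPM in the vector control and 3.50, 3.02 and 3.34 CPM in the antisense-labelled libraries. It fell 2.09-fold (log2 fold change -1.06, SE 0.13, edgeR adjusted p = 0.000160). DLL4, the Delta-like ligand best known from endothelium and also made in the crypt, went the other way from a lower level. Its 0.799, 0.392 and 0.629 CPM in the vector control came from 46, 16 and 27 counts, and the 2.43, 3.29 and 2.31 CPM in the antisense-labelled libraries came from 100, 147 and 130 counts. DLL4 rose 4.33-fold (log2 fold change 2.12, SE 0.29, edgeR adjusted p = 0.000349).

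Each of these 4 ligands passed the test in all 6 fits that left out 1 library and in all 6 fits with another scaling, filter, test or block. DLL3, a ligand that inhibits Notch within the cell that makes it, was not among the members and did not pass (log2 fold change -0.74, SE 0.29, edgeR adjusted p = 0.0561), but passed without antisense-labelled library 2 (adjusted p = 0.0163) and under the stricter filter (0.0418). DLK2, a related transmembrane protein without a canonical receptor-binding domain, fell by 2.23 on the log2 scale, from 3.07 ± 0.464 to 0.652 ± 0.140 CPM.

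**Figure D1:**
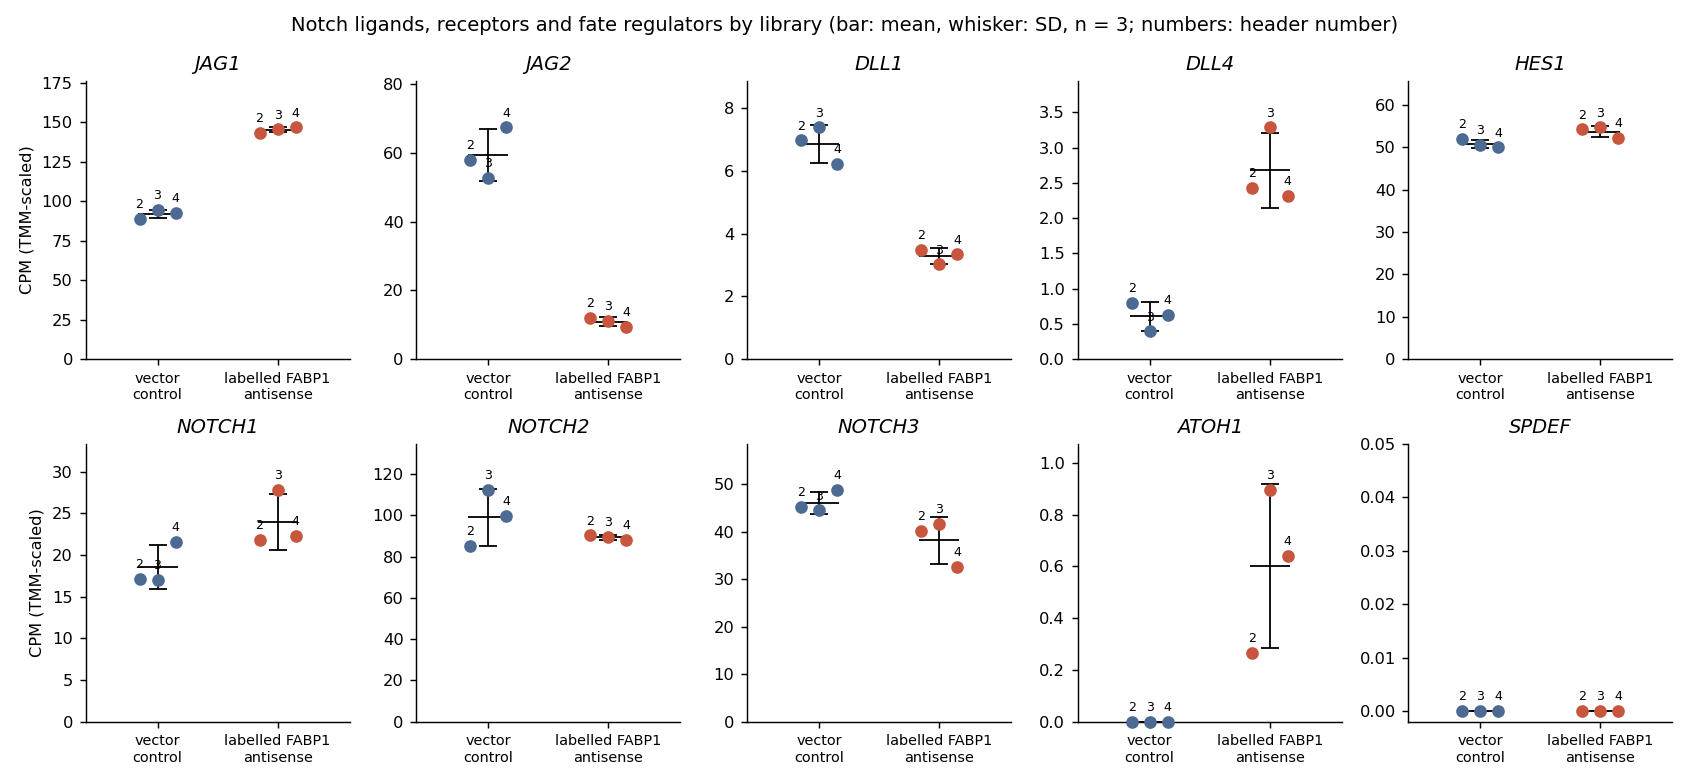
Level of each member in CPM (linear axes, each panel with its own scale) in the 6 libraries, with points for libraries, a bar for the mean and whiskers for the SD (n = 3). JAG1 and DLL4 lie higher and JAG2 and DLL1 lower in all 3 antisense-labelled libraries, HES1 lies between 50.0 and 54.7 CPM throughout, and ATOH1 is at 0 in all 3 vector control libraries.

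Levels of different genes were compared per length, as CPM per kb of the longest coding transcript in GENCODE v29. On that scale the summed level of the 5 Notch ligands JAG1, JAG2, DLL1, DLL3 and DLL4 was 28.6 ± 1.17 in the vector control and 28.5 ± 0.126 in the antisense-labelled libraries (SD, n = 3). The sum was thus nearly the same while its makeup was not. JAG1 supplied 53.7, 56.7 and 51.9% of it in the vector control, against 84.6, 85.6 and 87.1% under the antisense label. The share of JAG2 was 35.6, 32.2 and 38.6% in the vector control and 7.20, 6.70 and 5.71% in the other group. DLL1 supplied 7.58 ± 0.933 and 3.63 ± 0.275%, and DLL4 0.618 ± 0.213 and 2.73 ± 0.535%. These shares are descriptions of the same values as the tests above, and they gave similar numbers with the shortest coding transcripts (JAG1 53.5 and 85.5%).

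With the longest transcripts, HES1 came first in the vector control at 32.2 ± 0.638 CPM per kb, followed by JAG1 at 15.5 ± 0.449, JAG2 at 10.2 ± 1.29, NOTCH2 at 8.70 ± 1.20 and NOTCH3 at 5.33 ± 0.266. DLL1 at 2.16 ± 0.188 and NOTCH1 at 1.996 ± 0.281 followed, and DLL4 stood at 0.177 ± 0.0596. The libraries of JAG2 and NOTCH2 overlapped, as did those of DLL1 and NOTCH1. In the antisense-labelled libraries HES1 at 34.0 ± 0.845 and JAG1 at 24.4 ± 0.277 CPM per kb were again highest with the longest transcripts. This order depends on the transcript assumed for NOTCH2, which with its shortest coding transcript stood at 33.5 CPM per kb in the control, above HES1, and at 30.2 in the antisense-labelled libraries, above JAG1. JAG2 at 1.86 ± 0.222 CPM per kb stood there below NOTCH2 (7.84 ± 0.0969), NOTCH3 (4.41 ± 0.564) and NOTCH1 (2.57 ± 0.359), followed by DLL1 at 1.04 ± 0.0768, DLL4 at 0.779 ± 0.155 and ATOH1 at 0.271 ± 0.143.

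**Figure D2:**
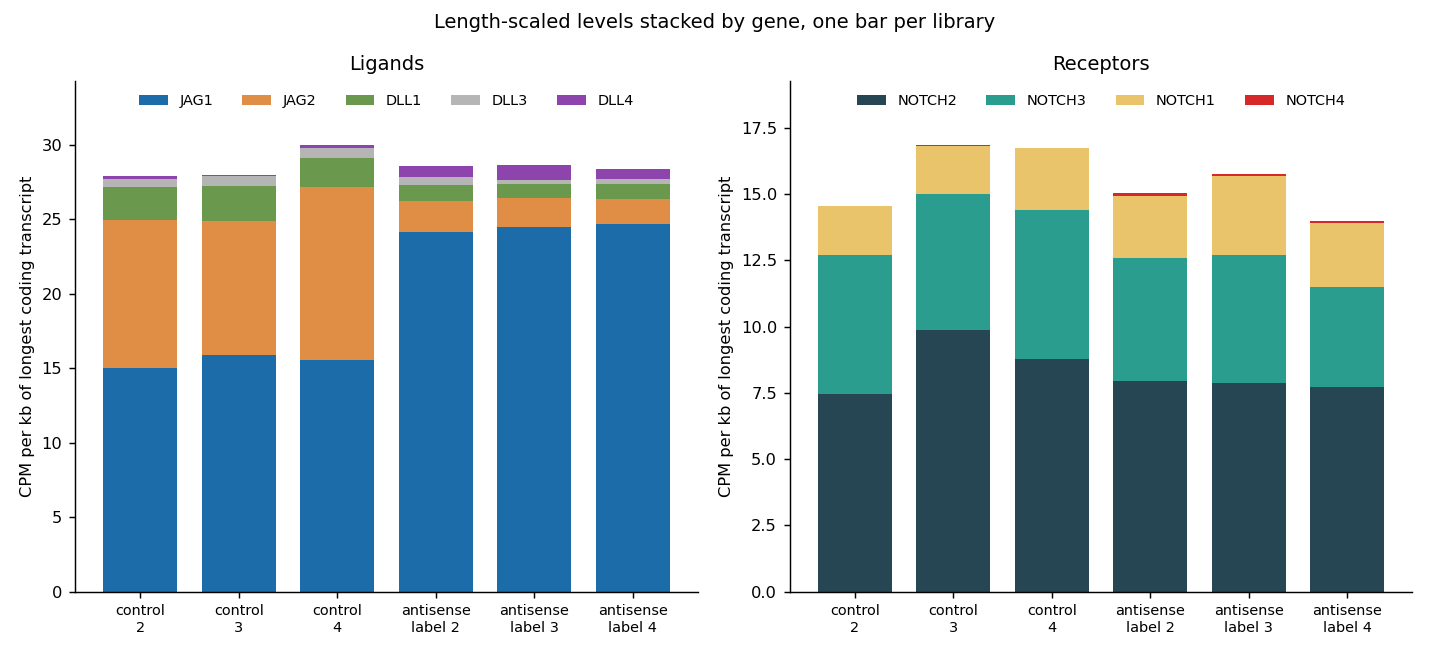
Stacked levels of the ligands (left) and receptors (right) in CPM per kb of the longest coding transcript, 1 bar per library. The ligand bars reach about the same height in both groups, while JAG1 fills 51.9 to 56.7% of them in the vector control and 84.6 to 87.1% in the antisense-labelled libraries; the receptor bars keep NOTCH2 as the largest part.

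The receptors differed little. NOTCH1 had 17.2, 17.0 and 21.6 CPM in the vector control and 21.8, 27.8 and 22.3 CPM in the antisense-labelled libraries. The groups were separated by a narrow gap between control library 4 and antisense-labelled library 2. Its log2 fold change was 0.37 (SE 0.13, edgeR adjusted p = 0.0383), and the call was lost without control library 2 (adjusted p = 0.139), control library 3 (0.103) or antisense-labelled library 3 (0.136), without a filter on low counts (0.0528) and with the replicate block (0.0670).

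NOTCH3 had 45.2, 44.5 and 48.8 CPM in the vector control and 40.3, 41.7 and 32.6 CPM in the antisense-labelled libraries. Its log2 fold change was -0.27 (SE 0.10, edgeR adjusted p = 0.0469), and antisense-labelled library 4 was the lowest. That call was lost without control library 2 (adjusted p = 0.0877) or 4 (0.119), without antisense-labelled library 2 (0.0610) or 4 (0.126), and with the replicate block (0.103).

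NOTCH2 had 85.0, 112 and 99.8 CPM in the vector control and 90.3, 89.6 and 88.1 CPM in the antisense-labelled libraries, so the groups overlapped, and control library 2 was the lowest of all 6. It did not pass (log2 fold change -0.15, SE 0.10, 95% interval -0.37 to 0.08, edgeR adjusted p = 0.233), but did without control library 2 (log2 fold change -0.25, adjusted p = 0.0405). NOTCH2NL, a partial copy of the first exons of NOTCH2, went from 9.28 ± 0.850 to 6.19 ± 0.117 CPM (log2 fold change -0.58, edgeR adjusted p = 0.00158). Reads of this copy and of NOTCH2 are nearly identical, so the split between the genes, and with it both values, is uncertain.

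Per length, NOTCH2 made up 54.1 ± 3.87% of the summed NOTCH1 to NOTCH4 level in the vector control and 52.7 ± 2.74% in the antisense-labelled libraries (SD, n = 3). NOTCH3 made up 33.3 ± 2.72 and 29.5 ± 2.20%, and NOTCH1 12.5 ± 1.53 and 17.2 ± 1.69%. With the shortest coding transcript, which shortens NOTCH2 from 11389 to 2954 bases, the share of NOTCH2 was 81.9 and 81.1%, so the share depends on the transcript assumed. NOTCH4, a receptor best known from endothelium, rose from 17 to 91 counts over the 3 libraries of a group (log2 fold change 2.36, SE 0.52, edgeR adjusted p = 0.00463) and stayed under 1% of the receptor sum. Of the 10 endothelial markers 7 had 0 counts in all libraries, and ESAM, PECAM1 and VWF passed upward, as did 27.7% of all tested genes. VWF no longer passed without control library 4 (adjusted p = 0.0579) or antisense-labelled library 4 (0.0830), or with the replicate block (0.0503). The summed endothelial level was 3.33 to 4.64 CPM in the vector control and 6.29 to 7.80 CPM in the antisense-labelled libraries. Its part in the rises of DLL4 and NOTCH4 was not tested. In bulk RNA more cells making a gene and more RNA per cell cannot be told apart.

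HES1, the repressor read most often as Notch output, had nearly the same level in both groups, with 51.9, 50.5 and 50.0 CPM in the vector control and 54.2, 54.7 and 52.2 CPM in the antisense-labelled libraries. The groups did not overlap, but by a margin small against the levels. At a log2 fold change of 0.08 (SE 0.07, 95% interval -0.07 to 0.23), HES1 passed neither the test on all libraries (edgeR adjusted p = 0.330) nor any of the 6 fits that left out 1 library (0.324 to 0.521). 

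Other HES and HEY genes and further targets of Notch moved both ways. The list takes HES and HEY genes by family, so its counts are not a reading of Notch output alone. Of 16 listed HES and HEY genes and further targets 10 were tested, of which 6 rose and 4 fell. Over all tested genes 27.7% rose and 27.3% fell. The list had a median log2 fold change of 0.30 against 0.01 over all tested genes. The 4 falls became 2 without control library 4, 1 without antisense-labelled library 2 and 2 without antisense-labelled library 3. NRARP, a feedback inhibitor that is a direct Notch target, fell from 34.4 ± 3.29 to 27.7 ± 1.27 CPM (log2 fold change -0.31, SE 0.09, edgeR adjusted p = 0.0162). Its call was lost without antisense-labelled library 2 (adjusted p = 0.0587) or 3 (0.0640). HEYL, another Notch-induced repressor, fell by 0.67 from 3.24 ± 0.748 CPM, and HES4 fell by 0.67 from 8.74 ± 2.41 CPM with overlapping groups. HES6, which counteracts HES1, rose by 0.29 to 12.3 ± 0.532 CPM. The calls of HEYL, HES4 and HES6 were lost in 3, 4 and 5 of the 6 fits without 1 library, at adjusted p of 0.0600 to 0.0817, 0.0532 to 0.0849 and 0.0620 to 0.130.

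HES2 and HES7 rose from very low levels, HES2 from 10 to 66 counts and HES7 from 22 to 69 counts over the 3 libraries of a group. HES7 no longer passed without antisense-labelled library 3 (adjusted p = 0.0558). HEY1 (29 and 22 counts) and HEY2 (8 and 3 counts) were too low to test, and HES5 had 0 counts in all libraries. Among targets shared with other pathways, the neuropilin gene NRP1 fell by 2.34 on the log2 scale from 21.7 ± 0.622 to 4.28 ± 0.723 CPM, and the cyclin gene CCND1 rose by 0.31 (SE 0.06). OLFM4, a Notch-dependent marker of crypt stem cells, had 6 and 24 counts and was not tested.

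ATOH1 RNA was found in the antisense-labelled libraries alone. It had 0 counts in each vector control library and 11, 40 and 36 counts in antisense-labelled libraries 2, 3 and 4, or 0.267, 0.894 and 0.640 CPM. Library 2 held the fewest counts of the 3. Against 3 counts over the whole control group (0.0212 CPM), the mean of 0.600 ± 0.316 CPM (SD, n = 3) was at least 28.3-fold higher (edgeR adjusted p = 0.00119). This bound covers the counting error of the control and leaves out the spread among the antisense-labelled libraries. With no count in the control, ATOH1 passed the filter on low counts through the antisense-labelled libraries alone and so was bound to differ. The adjusted p and its repeats without 1 library therefore add no support to the counts themselves. Per length, ATOH1 at 0.271 CPM per kb remained far below HES1 at 34.0 CPM per kb in the same libraries. A filter asking for 1 CPM in 3 libraries removed ATOH1 from the test.

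SPDEF had 0 counts in all 6 libraries, which allows a level of up to 0.0212 CPM for the vector control and 0.0211 CPM for the antisense-labelled libraries (3 counts over the group, counting error only). The regulator that follows ATOH1 was thus not detectable in either group at this depth.

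The other regulators of secretory and enteroendocrine fate were mixed. Of 36 listed, 22 were tested, of which 8 rose, 5 fell and 9 did not pass, with a median of 0.23. The rises and falls of all tested genes made up 27.7% and 27.3%. The 8 rises became 6 without antisense-labelled library 3 or with the replicate block, and 11 with the DESeq2 Wald test. CREB3L1, a membrane-bound transcription factor of secretory cells, rose from 1.54 ± 0.749 to 20.3 ± 0.592 CPM, a log2 fold change of 3.75 (SE 0.25, edgeR adjusted p = 4.46e-06), and KLF4, a factor of goblet cell maturation, from 1.86 ± 0.242 to 4.92 ± 0.175 CPM. SOX4 rose by 1.88 on the log2 scale from 32.8 ± 1.63 CPM. GFI1, the repressor that acts after ATOH1 to favour goblet and Paneth over endocrine fate, fell by 1.62 (SE 0.17) from 6.94 ± 0.102 to 2.26 ± 0.514 CPM. Its paralog GFI1B, known from blood cells, rose by 2.14 from 0.760 ± 0.138 CPM.

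XBP1, a factor of the secretory stress response, fell by 0.90 (SE 0.06) from 108 ± 3.50 CPM. ID1 and ID2, which block bHLH partners of ATOH1 and related factors, fell by 0.56 and 0.77, while ID3 rose by 0.46. FOXA1, a forkhead factor needed for goblet and endocrine cells, fell by 0.32 from 102 ± 1.79 CPM, and FOXA2 did not pass (log2 fold change 0.07, SE 0.09, 95% interval -0.13 to 0.26). SOX9, a factor of crypt and Paneth cells, rose by 0.23, a call lost without control library 2 (adjusted p = 0.0810) or antisense-labelled library 3 (0.0924) or 4 (0.0694) and with the replicate block (0.0742). The endocrine regulator NEUROG3 had 0 and 7 counts, RFX6 0 and 46, and NEUROD1, INSM1 and PAX4 had 0 in all libraries.

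Goblet cell products, which lie after these regulators, were mostly higher. Of 26 listed, 19 were tested, of which 15 rose, 1 fell and 3 did not pass, with a median of 2.92 against 0.01 over all tested genes. Of the latter 27.7% rose and 27.3% fell. The 1 fall became 2 without control library 3 or without any 1 of the antisense-labelled libraries, 2 also with no filter or the DESeq2 Wald test, and 0 with the stricter filter. Several products with few or no control counts passed the filter through the antisense-labelled libraries, so the count and the median are descriptions. MUC2, the main secreted mucin of the colon, had 2 counts over the control libraries and 56 over the antisense-labelled ones. AGR2, a disulphide isomerase needed for mucin folding, rose from 136 ± 10.9 to 435 ± 13.9 CPM, by 1.67 on the log2 scale (SE 0.08), and its neighbour and paralog AGR3 from 0.441 ± 0.141 to 30.8 ± 3.25 CPM. CAPN8, a calpain of mucus-secreting cells, rose by 3.99 on the log2 scale. The product that fell was ITLN1, from 108 to 31 counts over the 3 libraries of a group (edgeR adjusted p = 0.00236). SPINK4, ZG16 and REP15 did not pass (edgeR adjusted p = 0.713, 0.364 and 0.0872). Among goblet products too low to test, CAPN9 had 42 and 3 counts, while CLCA1, MUC5AC, RETNLB and MUC5B had more counts under the antisense label. Of 16 enteroendocrine products the 4 tested rose, led by level by SYP, a vesicle protein (2.31 ± 0.270 to 5.66 ± 0.937 CPM), and CHGA, the defining granule gene, had 0 counts in all 6 libraries. NTS, from 10 to 262 counts, passed the filter mainly through the antisense-labelled libraries. Members too low to test went the other way, with 32 and 0 counts for SCG2, 31 and 7 for TPH1 and 24 and 0 for GIP, and the list had 1 fall with no filter and 2 with the DESeq2 Wald test. Of 14 Paneth and tuft cell products 4 were tested, of which 2 rose and 1 fell. LYZ, the lysozyme gene, rose by 1.04 to 25.4 ± 0.0636 CPM, MMP7 went from 6 to 219 counts, and PLA2G2A, a secreted phospholipase, fell by 2.13 from 152 ± 9.81 CPM. The summed level of this list was 157 to 176 CPM in the control and 61.9 to 63.1 CPM in the other libraries, and the defensin genes DEFA5 and DEFA6 had 0 counts throughout.

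**Figure D3:**
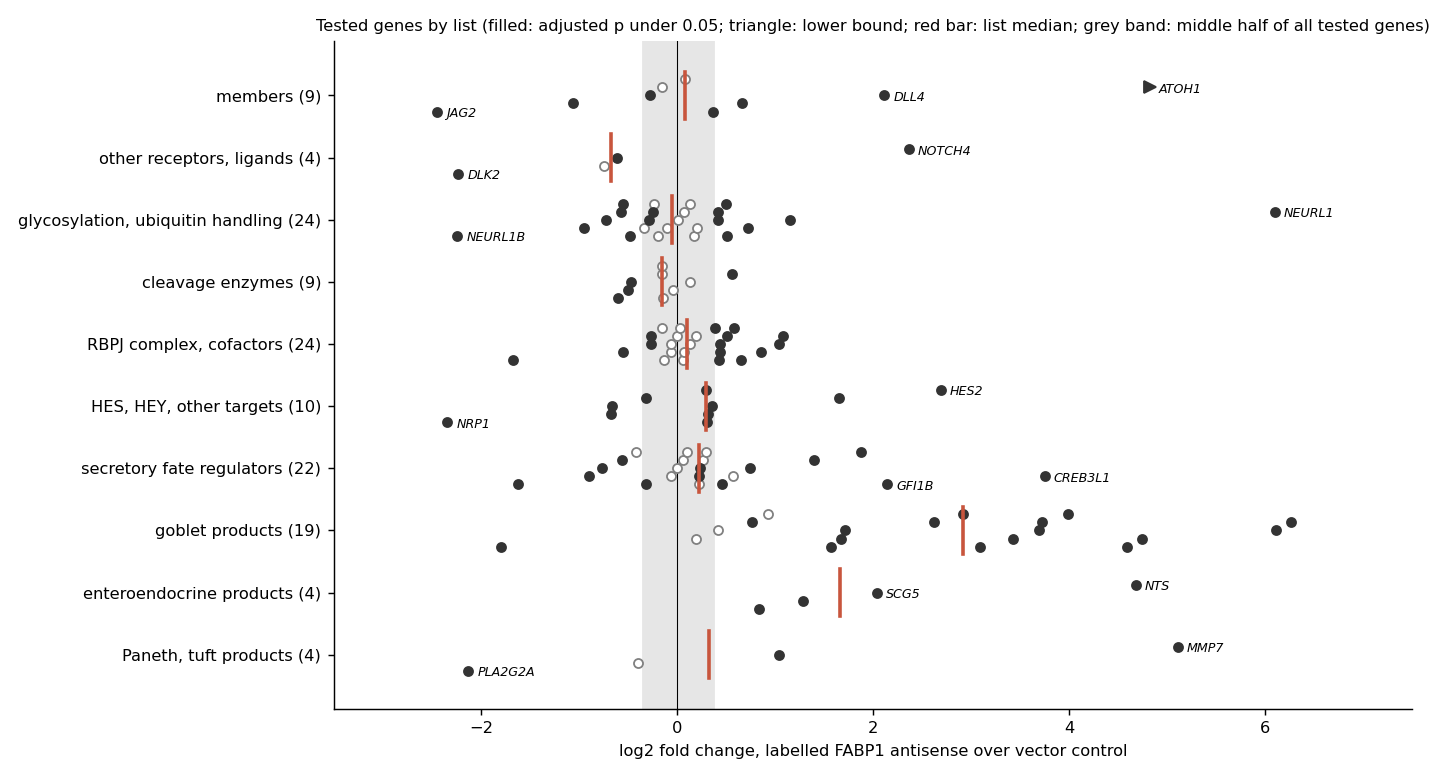
Fitted log2 fold change of each tested gene by list, with the number tested in brackets, filled points for an adjusted p under 0.05, a red bar at the list median and a grey band over the middle 50% of all tested genes; ATOH1 is drawn at its lower bound as a triangle. The lists of the pathway itself have medians from -0.68 to 0.30, while goblet products have a median of 2.92.

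Genes that shape the ligands and receptors before signalling moved both ways. Of 25 that glycosylate them or mark them with ubiquitin, 24 were tested, of which 7 rose, 8 fell and 9 did not pass, with a median of -0.05. Without antisense-labelled library 3 the falls numbered 5. Among all tested genes 27.7% rose and 27.3% fell. The ubiquitin ligases NEURL1 and NEURL1B, both of the Neuralized family that drives ligand endocytosis, moved in opposite directions. NEURL1 rose from 0.105 ± 0.0632 to 7.85 ± 1.16 CPM, by 6.10 on the log2 scale (SE 0.30, edgeR adjusted p = 6.11e-07), and NEURL1B fell from 45.1 ± 2.12 to 9.56 ± 0.184 CPM (-2.24, SE 0.08, edgeR adjusted p = 8.68e-08). MIB1, the main ubiquitin ligase of the ligands, did not pass (log2 fold change 0.14, SE 0.10).

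POFUT1, which adds the O-fucose that receptors need for ligand binding, fell by 0.48 (SE 0.07) from 470 ± 29.6 to 336 ± 9.80 CPM. The Fringe genes extend that sugar, which for LFNG and MFNG favours Delta-like over Jagged ligands. MFNG and RFNG fell by 0.72 and 0.55, while LFNG rose by 0.42 from 6.38 ± 1.21 to 8.56 ± 0.0970 CPM. The LFNG call was lost in 5 of the 6 fits without 1 library (adjusted p of 0.0520 to 0.0718), every one except that without control library 4. The MFNG call was lost without control library 4 (0.0518) or antisense-labelled library 3 (0.0547). Of the Numb proteins, which hold back receptor signalling, NUMBL fell by 0.94 and NUMB did not pass (log2 fold change 0.01, SE 0.06). NEDD4, a ubiquitin ligase with receptors among its substrates, rose by 1.15.

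Of the 9 cleavage enzymes 1 rose and 3 fell, beside 27.7% and 27.3% of all tested genes. ADAM10, the protease that makes the ligand-dependent cut, rose from 115 ± 13.2 to 170 ± 11.7 CPM, by 0.56 on the log2 scale (SE 0.10, edgeR adjusted p = 0.00117). ADAM17, its relative, fell to 33.3 ± 3.68 from 50.6 ± 4.03 CPM (-0.60, SE 0.10, edgeR adjusted p = 0.000981). In gamma-secretase, the subunit genes NCSTN and PSEN2 fell by 0.47 and 0.50, and APH1A, APH1B and PSENEN did not pass, with log2 fold changes from -0.16 to -0.04. FURIN, which cuts the receptor on its way to the surface, did not pass (-0.14, SE 0.09).

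In the nucleus 10 of 24 tested genes of the RBPJ complex, its coactivators and its corepressors rose and 4 fell, with a median of 0.10. Beside these counts, 27.7% of all tested genes rose and 27.3% fell. The falls numbered 3 in every other fit except that without control library 4 and the DESeq2 Wald test. RBPJ itself rose from 40.2 ± 4.68 to 54.5 ± 6.05 CPM, by 0.44 on the log2 scale (SE 0.11, edgeR adjusted p = 0.00877). The coactivators MAML3 and KAT2B rose by 0.65 and 1.08, and MAML1 did not pass (-0.06, SE 0.08). The corepressors L3MBTL3 and CTBP2 rose by 1.04 and 0.86, and TLE1, a Groucho corepressor that HES proteins recruit, fell by 1.67 from 12.1 ± 0.564 to 3.78 ± 0.298 CPM. Coactivators and corepressors were thus both among the genes that rose.

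The members were also set beside their neighbours on the chromosomes, since around some of them most neighbours that changed fell. Around DLL4 and ATOH1 most neighbours that changed rose. Among all tested genes the shares were 27.7% higher and 27.3% lower. JAG2 lay among 35 tested neighbours (up to 25 on either side) on chromosome 14 with a median log2 fold change of -0.28, of which 17 fell and 3 rose, so its own -2.45 was much larger. DLL1 lay near the end of chromosome 6 among 29 neighbours, of which 15 fell and 8 rose, with a median of -0.28 beside its own -1.06. For JAG1 on chromosome 20 and DLL4 on chromosome 15 the neighbours had medians of 0.00 and 0.16, beside 0.66 and 2.12 for the members. Each had 50 neighbours, of which 10 rose and 14 fell for JAG1, and 19 rose and 7 fell for DLL4.

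The receptors compared differently with their surroundings. NOTCH1 on chromosome 9 rose among 50 neighbours of which 33 fell and 1 rose (median -0.47), a gap of 0.83. NOTCH2 on chromosome 1 did not pass, at -0.15, among 50 neighbours of which 33 fell and 5 rose (median -0.40). NOTCH3 on chromosome 19 and HES1 on chromosome 3 had neighbours near 0 (medians 0.03 and -0.08). The 50 neighbours of ATOH1 on chromosome 4 had a median of 0.28, and 23 of them rose and 8 fell. These gaps are descriptions, and no test was made of them.

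**Figure D4:**
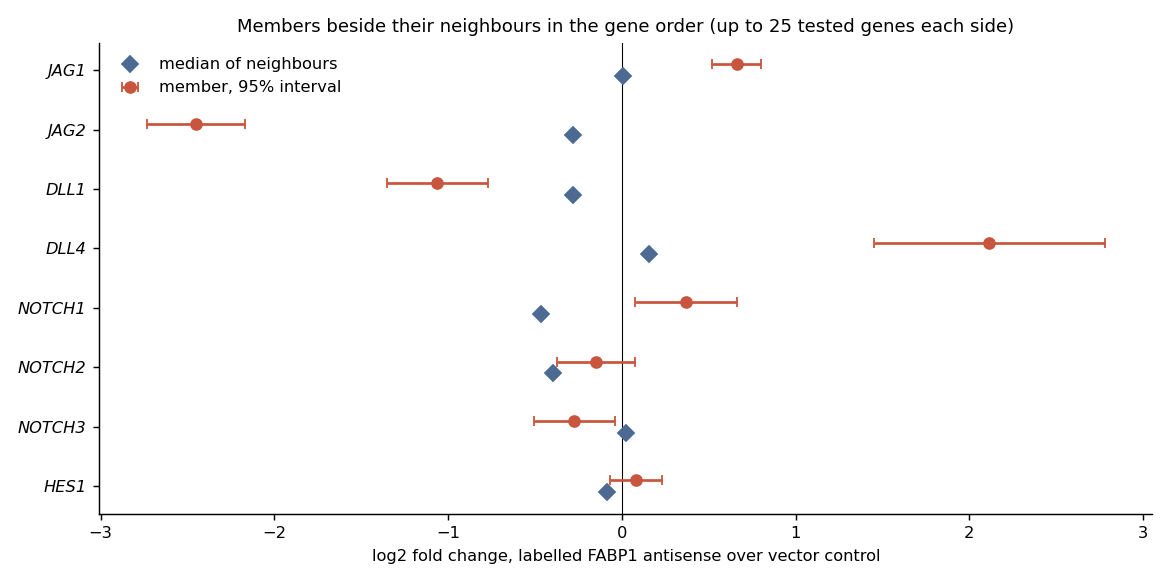
Log2 fold change of 8 members with its 95% interval (circles) beside the median of up to 25 tested neighbours on either side in the gene order (diamonds); ATOH1, with a lower bound only, is not drawn. JAG1, JAG2, DLL1 and DLL4 lie away from their neighbours in the direction of their own change, and NOTCH1 lies above neighbours whose median is -0.47.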

How the data were processed

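RNA was extracted with TRIzol and made into TruSeq Stranded mRNA libraries, per the labels' protocols. HISAT2 2.1.0, StringTie 1.3.4d, Bowtie2 2.3.4.1, Trimmomatic 0.38, bcl2fastq and the build GRCh37 are listed, without roles, in the submitters' processing notes. No source states whether counting used strand, so reads of overlapping antisense genes may be mixed. The deposited table holds raw read counts per gene, which the authors had not normalized. Another 12 columns of per-library values, FPKM and TPM per the file headers, were not used. Columns were assigned to groups by the group name in the header. Header numbers are 2, 3 and 4 and the labels number replicates 1, 2 and 3, so the header number names a library.

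The test was edgeR 4.0.16 in R 4.3.3 (filterByExpr, TMM, glmQLFit and glmQLFTest, Benjamini-Hochberg over 14640 genes, threshold 0.05). CPM used TMM effective library sizes. The SE of a log2 fold change was its size over the square root of F, and 95% intervals used the total degrees of freedom. Floors are 3 counts and cover counting error only. Intervals and p-values are for the whole table, with no test over a list. The fit was tested on simulated data. RefSeq's gene order (GRCh38.p14, not the files' build) placed 99.7% of tested genes. Lengths came from GENCODE v29 by symbol. Alternatives were DESeq2 1.42.0, other scalings and filters, fits without 1 library, and a replicate block from the header numbers. Figures used Python 3.11.15 with matplotlib 3.10.9.

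The members and the 14 gene lists were chosen with earlier results of these data known. The naming rule covered the members, FABP1, tested HES and HEY genes, fixed key genes, and in each list up to 4 genes with the largest changes (adjusted p under 0.05, mean log2 CPM of at least 1, no overlap). Not every gene it picked is named in the text, FCGBP, TFF3, PDGFRB, FBLN1, CD68, EGFL7 and CDKN1A being among those left out. Genes outside this rule (such as DLL3, DLK2, NOTCH4, POFUT1, MIB1, NOTCH2NL, NRARP, XBP1, ID1 to ID3, MAML1, MAML3, PECAM1, VWF, MUC2 and AGR2) were named after their values were seen. The value of 1 listed gene is not reported here.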

Additional observations from a re-analysis of the deposited data

How the results depend on the processing

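The 4 rises and 3 falls among the members became 3 to 4 rises and 2 to 3 falls in the fits without 1 library. They were 4 and 3 with DESeq2 size factors, library size scaling or the DESeq2 Wald test, 3 and 3 with no filter or the stricter filter, and 3 and 2 with the replicate block. NOTCH1 and NOTCH3 account for these losses, apart from the stricter filter, which removed ATOH1. Of 107 values of single members under the alternatives 96 stayed on their side of the threshold, 10 lost the call, 1 (NOTCH2) gained it, and no direction turned. No setting moved the median of all genes by over 0.1 on the log2 scale. All genes called higher and lower were 3510 to 4108 and 3449 to 3951 without 1 library, and 3355 and 3306 with the replicate block. Deviations of same-numbered libraries correlated at 0.04, -0.19 and -0.31 for numbers 2, 3 and 4, and not every library correlated best with its own number. Deviations from a mean of 3 libraries cannot decide whether same-numbered libraries were paired. All that they are known to share is a number. ATOH1, HES2, HES7, NOTCH4 and the genes with under 100 counts per group are limited by depth, and SPDEF was below the floor.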
